A study of Homo sapiens with 12 samples.

Results

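The genes described here are 51 genes of the G1/S transition and of DNA replication, followed across 5 groups of a prostate cancer cell line that express different forms of SPOP. They were taken from a list of replication licensing, replication fork, nucleotide supply and G1/S genes, matched by gene symbol to the probes of the array. A gene was kept where a probe was detected (detection p under 0.05) on at least 2 of 12 arrays, and all 51 passed, among 12227 genes tested in all. They have 78 named probes on the array, of which 75 passed, and 20 of the genes have more than 1 such probe. The probe with the highest mean level stands for each gene.

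The cells were LNCaP-Abl, a line derived from LNCaP prostate cancer cells by long culture without androgen, grown in RPMI medium with charcoal-stripped serum, which is depleted of steroids. Cells of all groups were transfected and treated with doxycycline, which switches on the introduced construct, so these conditions are shared by the controls. The control vector and wild-type SPOP were measured on 3 arrays each, and the mutants SPOP F102C, SPOP F133V and SPOP F133L on 2 each. These amino acid changes lie in the substrate-binding domain of SPOP, which recruits proteins to a CUL3 ubiquitin ligase, and the submitters describe them as mutants that occur in prostate cancer. The replicates are described in the labels as biological, but the number of lines or clones behind them is not stated in those sources, so p-values here cover only array-to-array spread.

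Before S phase, the origin recognition complex, CDC6 and CDT1 load rings of MCM2 to MCM7 onto DNA, a step called licensing, and geminin (GMNN) holds CDT1 back once S phase has begun. CDC45 and the GINS complex then join the ring to form the moving helicase, and polymerases, the sliding clamp PCNA and its loader RFC copy the strands behind it. Many of these genes are transcribed in late G1 under E2F transcription factors, which the RB family restrains and which cyclin E with its kinase releases.

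The control arrays detected 19272 to 19677 of 47323 probes, those with wild-type SPOP 18906 to 19175 and the mutant arrays 17485 to 19543. Pearson r over the genes tested was 0.990 to 0.994 between replicate arrays and 0.983 to 0.992 between groups. Of the 12 markers of the luminal LNCaP lineage on the list used, 10 were measured and 9 were detected on every array. Their summed signal (linear, after normalization) was 16851 to 17251 with control vector, 19845 to 20247 with wild-type SPOP and 17758 to 18814 in the mutants. The basal markers KRT5 and KRT14, the neuroendocrine markers CHGA, CHGB and SYP, the fibroblast markers COL1A1, COL3A1, DCN and LUM and the immune markers CD3E and LYZ were detected on no array. Of the basal list, 1 gene was measured, VIM, at 501 to 605 with control vector, 201 to 243 with wild-type SPOP and 221 to 278 in the mutants. The other lists likewise had at most 1 measured gene. ENO2 of the neuroendocrine list stood at 233 to 278 with control vector, 390 to 442 with wild-type SPOP and 493 to 550 in the mutants, and CD68 of the immune list at 163 to 171, 142 to 181 and 176 to 262. These markers and the number of detected probes move with the groups, and their part in the results below was not tested except where a value is given. The array probe of SPOP did not separate the groups, with differences of -0.05 for wild-type SPOP and -0.14 for the mutants against control vector, neither past the threshold.

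Promoters of CDT1, UHRF1, CDCA7, UNG and GMNN, on which the results turn, and of MCM10 are shown so that E2F letters can be seen in place. MCM10 is shown as a promoter without the exact words searched for. RefSeq promoter windows on GRCh38.p14 (250 bases before to 50 after each annotated start) were found for 44 of the 51 genes. Windows were searched on both strands for the E2F letters TTTCGCGC, TTTGGCGC, TTTCCCGC and TTTGCCGC, and capitals below mark a match as read on the gene's strand. The windows are on the plus strand at chr16:88803539-88803838 (CDT1), chr19:4909251-4909550 (UHRF1), chr2:173354622-173354921 (CDCA7), chr12:109097922-109098221 (UNG), chr6:24775163-24775462 (GMNN) and chr10:13161308-13161607 (MCM10).
CDT1: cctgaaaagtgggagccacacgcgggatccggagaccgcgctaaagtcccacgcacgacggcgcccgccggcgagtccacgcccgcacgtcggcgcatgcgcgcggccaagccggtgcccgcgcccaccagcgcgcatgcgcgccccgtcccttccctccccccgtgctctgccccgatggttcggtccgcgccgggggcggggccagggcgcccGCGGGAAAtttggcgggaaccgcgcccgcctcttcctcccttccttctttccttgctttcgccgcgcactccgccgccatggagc
UHRF1: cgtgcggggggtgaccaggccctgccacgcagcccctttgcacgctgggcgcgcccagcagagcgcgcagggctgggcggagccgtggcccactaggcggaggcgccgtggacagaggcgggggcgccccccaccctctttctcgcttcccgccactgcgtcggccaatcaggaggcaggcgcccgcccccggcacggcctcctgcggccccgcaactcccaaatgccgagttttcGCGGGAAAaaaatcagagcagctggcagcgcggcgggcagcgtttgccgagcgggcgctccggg
CDCA7: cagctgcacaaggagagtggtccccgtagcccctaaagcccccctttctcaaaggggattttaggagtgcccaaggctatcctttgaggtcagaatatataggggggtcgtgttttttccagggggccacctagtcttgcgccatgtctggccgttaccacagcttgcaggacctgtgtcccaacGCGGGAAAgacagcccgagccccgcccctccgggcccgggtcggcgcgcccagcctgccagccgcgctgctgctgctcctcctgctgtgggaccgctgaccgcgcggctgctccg
UNG: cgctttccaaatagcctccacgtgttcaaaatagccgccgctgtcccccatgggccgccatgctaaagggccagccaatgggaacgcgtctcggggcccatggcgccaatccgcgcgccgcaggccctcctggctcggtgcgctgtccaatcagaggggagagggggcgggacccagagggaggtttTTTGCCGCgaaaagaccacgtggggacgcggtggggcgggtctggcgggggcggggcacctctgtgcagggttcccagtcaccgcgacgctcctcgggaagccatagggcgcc
GMNN: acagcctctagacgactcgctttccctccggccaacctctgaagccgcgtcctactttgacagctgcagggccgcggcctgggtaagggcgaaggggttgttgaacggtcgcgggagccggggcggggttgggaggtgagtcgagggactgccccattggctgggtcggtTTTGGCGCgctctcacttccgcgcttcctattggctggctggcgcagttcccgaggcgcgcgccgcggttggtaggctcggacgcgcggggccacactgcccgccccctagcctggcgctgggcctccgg
MCM10: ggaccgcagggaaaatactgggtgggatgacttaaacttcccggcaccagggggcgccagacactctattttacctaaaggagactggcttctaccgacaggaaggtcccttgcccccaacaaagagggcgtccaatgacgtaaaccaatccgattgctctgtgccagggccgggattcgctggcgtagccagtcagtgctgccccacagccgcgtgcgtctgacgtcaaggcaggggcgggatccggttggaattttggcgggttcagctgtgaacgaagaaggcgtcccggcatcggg
The match begins at position -35 in CDT1, -14 in UHRF1, -65 in CDCA7, -63 in UNG and -80 in GMNN, counting the first transcribed base as 1, and MCM10 has none of the 4 words in its window. The MCM10 and CDT1 windows each hold an unmarked tttggcgg, which differs from TTTGGCGC in its last letter and was not counted. UHRF1, UNG and GMNN have further annotated starts, and UHRF1 holds another match (TTTCGCGC) in a second window. The remaining UHRF1 window and the other UNG and GMNN windows hold none of the 4 words.

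At least 1 of the E2F words stands in a promoter window of 23 of the 44 genes (52.3%) and of 1090 of 27305 genes with a window (3.99%). By window the shares were 42.1% of 57 and 3.31% of 35116. TTTCGCGC and TTTGGCGC matches overlap on opposite strands in MCM6, and 2 TTTCGCGC matches overlap in MCM2. The share was 8 of 11 among the genes lower with wild-type SPOP described below, 10 of 14 among those higher in the mutants than with wild-type SPOP, and 11 of 26 among those in neither set. Genes with a window but no match were MCM10, PRIM1 and CHAF1A among the former, and CHAF1A, CDC45, PRIM2 and FEN1 among those higher in the mutants. The NF-Y letters CCAAT stand in 57.9% of the windows against 34.6% of all, and the CHR letters TTTGAA, known from promoters of G2/M genes, in 3.51% against 15.2%. These matches are descriptions of the letters in the windows.

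With wild-type SPOP, 12 of the 51 genes fell against control vector and 0 rose (limma, adjusted p under 0.05 over all genes tested). Of all genes tested 6.15% passed in either direction, 3.07% lower and 3.08% higher. The median log2 difference of the 51 was -0.26, that of all genes was 0.00, and 44 of the 51 differences were below 0 against 49.8% of all genes. The 44 include CCNE2, whose probe passed the filter through 2 control arrays alone, so its lower level was built in by the filter. The 12 were the licensing factor CDT1, the helicase genes MCM2, MCM4, MCM6, MCM7, MCM10 and GINS3, the primase subunit PRIM1, the chromatin genes UHRF1 and CHAF1A, the uracil glycosylase UNG, which removes uracil from DNA, and CDCA7, a target of MYC and E2F that partners a chromatin remodeller. For 29 of the 51 genes all 3 wild-type SPOP arrays lay below all 3 control arrays, as for 14% of all genes. The count of 12 fell to 5 without control array 1, wild-type SPOP array 2 or wild-type SPOP array 3, and to 6 without control array 2 or wild-type SPOP array 1. Over all genes the count of 752 fell to between 403 and 433 in these fits. CDT1, MCM4, MCM10 and CDCA7 passed in each of the 12 fits that left out 1 array. With each array's count of detected probes as a covariate, 4 of the 51 and 343 of all genes passed. RNA came from whole cultures, so fewer cells in a stage of the cycle and less of a transcript per cell cannot be told apart.

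In the mutants, the 3 groups averaged with equal weight, 15 of the 51 genes rose against wild-type SPOP and 0 fell, where 11.8% of all genes passed, 6.18% lower and 5.57% higher. Of the 51 differences 7 were below 0, against 52.8% of all genes. The median difference was 0.23 (all genes -0.01) and turned to -0.10 when arrays were scaled to equal medians over all probes, a scaling that moved the median of all genes to -0.26. The same wild-type SPOP arrays stand on both sides of this and the preceding comparison, so the values of both are given side by side below and not as 2 independent results. The 15 were CDT1 and GMNN among the licensing genes, MCM5, MCM7, CDC45, GINS2 and GINS3 of the helicase, POLA1, POLE2 and PRIM2 of the polymerases and primase, FEN1, UHRF1, CHAF1A, UNG and CDCA7. For 14 of the 51 genes all 6 mutant arrays lay above all 3 wild-type SPOP arrays, as for 8.01% of all genes, and for 1 (ORC6) all lay below, as for 8.4%. Leaving out wild-type SPOP array 1, 2 or 3 changed the count of 15 to 6, 9 or 6, and it was 3 with that covariate. Over all genes the count of 1437 changed to 601, 765 or 700, and to 308 with the covariate. CDT1, UHRF1, CDCA7 and UNG passed in each fit that left out 1 array.

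**Figure D1:**
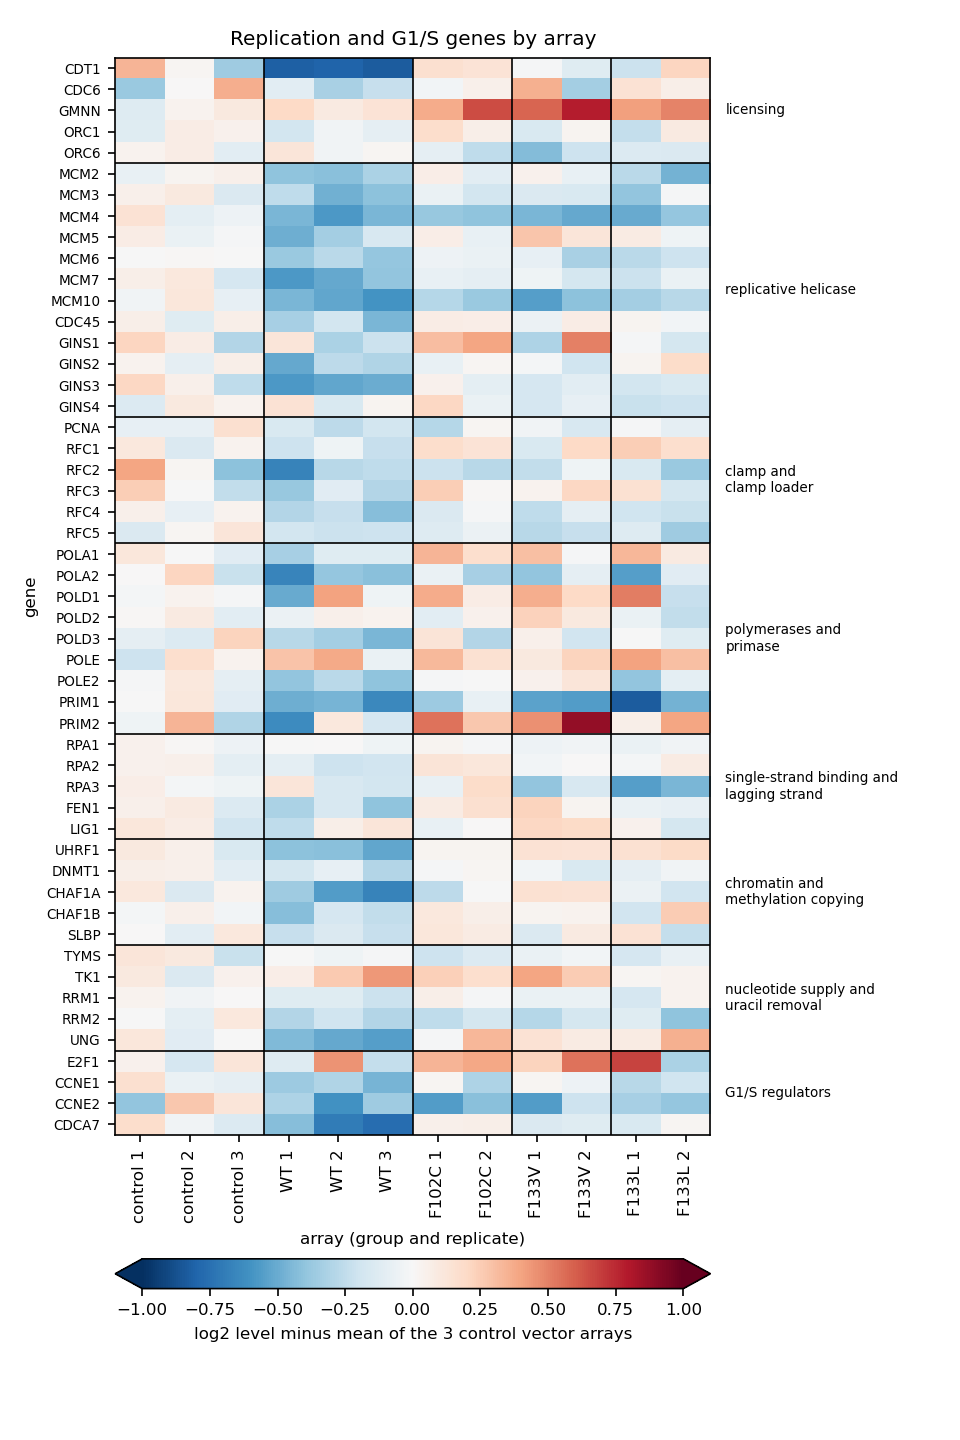
Log2 level of each of the 51 genes (rows, by role) on each of the 12 arrays (columns, by group), minus the mean of the 3 control vector arrays, from blue (lower) to red (higher). The wild-type SPOP columns are blue in most rows, and the lowest of the 5 group means is that of wild-type SPOP for 37 of the 51 genes.

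Among the licensing genes, CDT1, which brings the MCM ring to origins, read 8.68, 8.35 and 7.98 on the control arrays and 7.52, 7.54 and 7.50 on the wild-type SPOP arrays (normalized log2 levels, as in all array values below). It read 8.49 and 8.47 with SPOP F102C, 8.32 and 8.21 with SPOP F133V and 8.12 and 8.55 with SPOP F133L. The wild-type SPOP arrays were below every other array, and the mutant arrays lay within the span of the controls. CDT1 was 1.76-fold lower with wild-type SPOP than with control vector (log2 difference -0.82 ± 0.16 SE, adjusted p = 0.0114) and 1.79-fold higher in the mutants than with wild-type SPOP (0.84 ± 0.14, adjusted p = 0.0031). The difference between mutants and control was 0.02, with a 95% interval of -0.28 to 0.33. In the deposited intensities, before normalization, CDT1 read 289 to 316 with wild-type SPOP, 415 to 648 with control vector and 323 to 464 on 5 mutant arrays. The first SPOP F133V array, the dimmest of the 12, read 258, below the wild-type SPOP arrays.

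Geminin, the inhibitor of CDT1, followed another order. GMNN read 9.72, 9.88 and 9.95 on the control arrays, 10.05, 9.95 and 9.99 with wild-type SPOP, 10.22 and 10.51 with SPOP F102C, 10.43 and 10.64 with SPOP F133V and 10.26 and 10.35 with SPOP F133L. All 6 mutant arrays were above all 6 others, while control and wild-type SPOP arrays met at 9.95. GMNN was higher in the mutants than with wild-type SPOP by 0.41 ± 0.09 (adjusted p = 0.0165, limma) and higher than with control vector by 0.55 ± 0.09 (adjusted p = 0.00284). Under equal medians over all probes, with the median of all genes moved to -0.26 and -0.37, these values were 0.084 and 0.056 and neither passed (adjusted p = 0.692 and 0.773, limma). With the detected probes as a covariate they were 0.55 and 0.79, and the second did not pass. The difference of wild-type SPOP from control was 0.14 ± 0.11 and did not pass. CDC6, ORC1 and ORC6, which with CDT1 load the ring, passed in none of these comparisons. ORC6 has 2 fully detected probes of opposite sign, at 0.03 and -0.28 for wild-type SPOP against control and -0.25 and 0.19 for the mutants against wild-type SPOP.

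Of the 12 helicase genes 6 fell with wild-type SPOP, with a median difference of -0.37, and 10 had all wild-type SPOP arrays below all control arrays. MCM4, a subunit of the ring, read 10.56, 10.32 and 10.37 with control vector, 9.97, 9.84 and 9.96 with wild-type SPOP, and 10.04, 10.02, 9.96, 9.91, 9.92 and 10.03 on the mutant arrays in the order F102C, F133V and F133L. Wild-type SPOP and mutant arrays overlapped and both lay below the controls. The difference was -0.50 ± 0.09 for wild-type SPOP (adjusted p = 0.00884, limma) and -0.44 ± 0.08 for the mutants (adjusted p = 0.00485), each against control vector. A second fully detected MCM4 probe gave smaller differences of -0.20 and -0.16 (unadjusted p = 0.117 and 0.132 in a limma fit of the probes), so the MCM4 result rests on 1 probe. MCM10, which activates the loaded helicase, read 9.69, 9.84 and 9.64 with control vector, 9.27, 9.20 and 9.13 with wild-type SPOP, and 9.44, 9.35, 9.18, 9.31, 9.38 and 9.45 in the mutants. Here too every array labelled wild-type or mutant SPOP was below every control. MCM10 differed from control by -0.52 ± 0.09 with wild-type SPOP (adjusted p = 0.00608, limma) and by -0.37 ± 0.08 in the mutants (adjusted p = 0.0108), a call lost without control array 2. A second fully detected MCM10 probe gave -0.50 and -0.22 (unadjusted p = 0.000281 and 0.0259, limma), and 0.28 for the mutants against wild-type SPOP, where the first gave 0.15 (unadjusted p = 0.00619 and 0.0990).

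MCM7, another ring subunit, took the other pattern. It read 12.11, 12.16 and 11.89 with control vector, 11.48, 11.54 and 11.66 with wild-type SPOP, and 11.98, 11.96, 12.01, 11.88, 11.84 and 11.98 in the mutants. The wild-type SPOP arrays were below all others, and the mutant arrays overlapped the controls. The differences were -0.49 ± 0.10 for wild-type SPOP against control (adjusted p = 0.0149, limma) and 0.38 ± 0.09 for mutants against wild-type SPOP (adjusted p = 0.0179). A second fully detected MCM7 probe gave -0.47 and 0.54. GINS3, a subunit of the GINS complex, read 8.71, 8.55 and 8.25 with control vector, 7.93, 7.98 and 8.01 with wild-type SPOP, and 8.55, 8.40, 8.34, 8.40, 8.33 and 8.36 in the mutants. It too was lowest on the wild-type SPOP arrays, without overlap, at -0.53 ± 0.11 (adjusted p = 0.0176, limma) and 0.42 ± 0.10 (adjusted p = 0.0194) in these comparisons.

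MCM5 read 9.43, 9.29 and 9.34 with control vector, 8.87, 9.01 and 9.20 with wild-type SPOP, and 9.42, 9.28, 9.63, 9.48, 9.44 and 9.31 in the mutants. No array of another group was as low as those of wild-type SPOP, but the difference of wild-type SPOP from control was -0.33 ± 0.11 (adjusted p = 0.0923, limma) and only the rise in the mutants, 0.40 ± 0.09, passed (adjusted p = 0.0172). MCM2 and MCM6 fell with wild-type SPOP by 0.38 and 0.35 on the log2 scale (adjusted p = 0.0365 and 0.0425), and the mutants stood 0.24 and 0.18 above wild-type SPOP, which did not pass. The MCM6 call was lost in 10 of the 12 fits that left out 1 array and the MCM2 call in 6, namely those without any 1 of the control or wild-type SPOP arrays. CDC45 and GINS2, which complete the helicase, rose in the mutants by 0.35 each against wild-type SPOP (adjusted p = 0.0230 and 0.0264), and differed by -0.32 and -0.36 between wild-type SPOP and control without passing. MCM3 was at -0.38 for wild-type SPOP against control (adjusted p = 0.0814). A second fully detected MCM3 probe gave -0.42, and 0.27 for the mutants against wild-type SPOP (unadjusted p = 0.00134 and 0.0102, limma). GINS1 was detected on 6 of 12 arrays and on none with SPOP F133L, so no fold is given for it, and GINS4 was at 0.01.

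**Figure D2:**
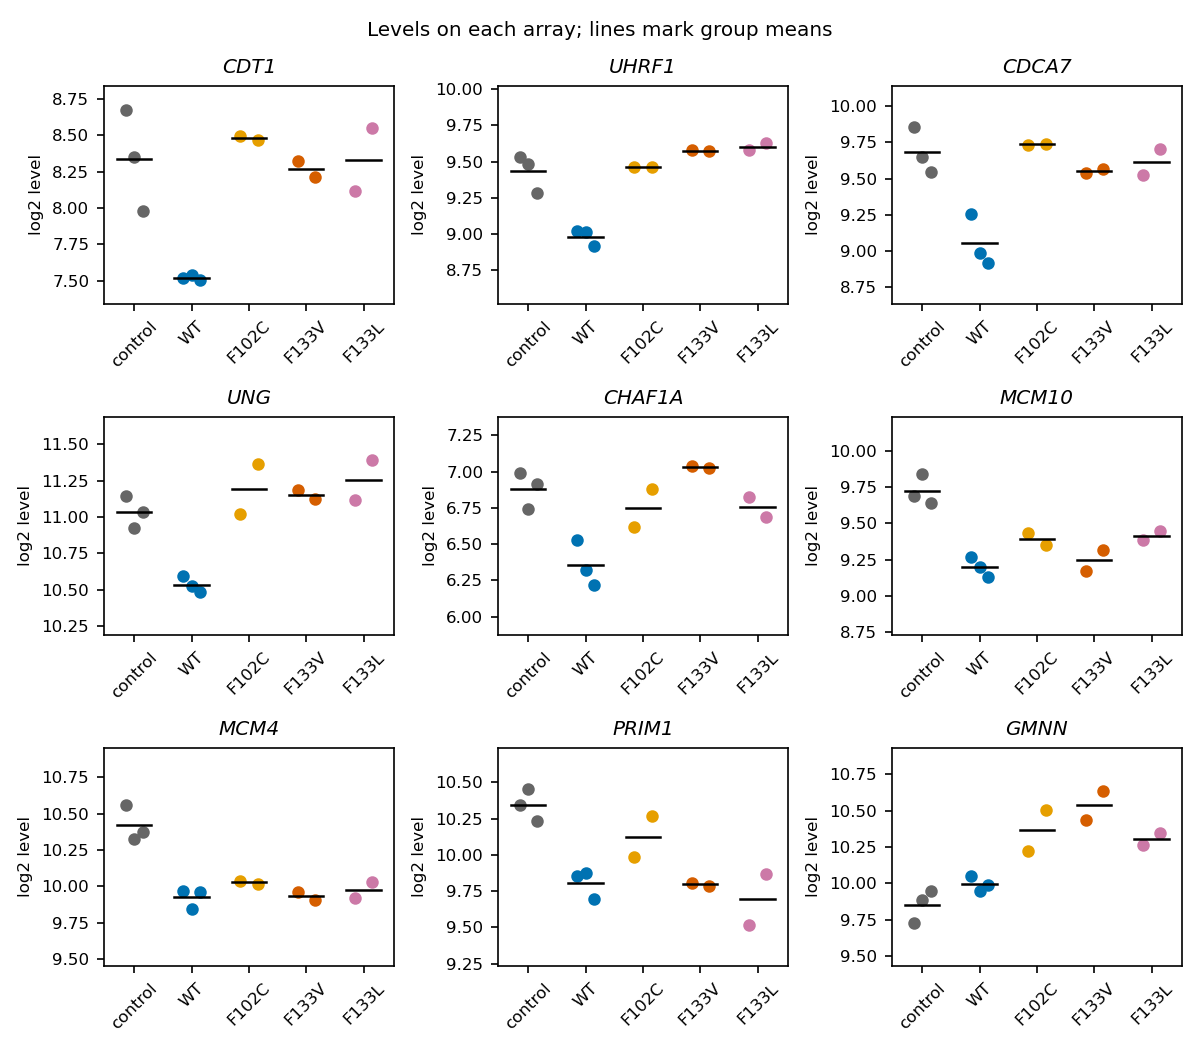
Normalized log2 level (vertical axis) of 9 genes on each array, by group (horizontal axis), with a line at each group's mean. CDT1, UHRF1, CDCA7, UNG and CHAF1A are lowest on the 3 wild-type SPOP arrays, MCM4 and MCM10 are highest on the 3 control arrays, and GMNN is highest on the 6 mutant arrays.

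By the probe that stands for each gene, none of the 6 clamp and clamp loader genes passed in any of the first 3 comparisons. PCNA, the clamp that holds polymerases on DNA, and RFC1 to RFC5, which load it, all had differences below 0 for wild-type SPOP, from -0.40 (RFC2) to -0.16 (RFC1). PCNA read 12.18, 12.18 and 12.42 with control vector, at most 12.11 with wild-type SPOP, and 11.98 to 12.28 in the mutants. The wild-type SPOP arrays lay just below the controls without overlap, a difference of -0.20 ± 0.11 (adjusted p = 0.331, limma). Its probes disagreed. Against wild-type SPOP the mutants stood at 0.10 by this probe and at 0.49 by a second fully detected one (unadjusted p = 0.319 and 0.000219, limma), and against control at -0.09 and 0.35 (unadjusted p = 0.356 and 0.00256). Another PCNA probe, detected on 9 arrays, gave 0.29 for wild-type SPOP against control and -0.30 for the mutants against wild-type SPOP (unadjusted p = 0.164 and 0.0997, limma).

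Of the 9 polymerase and primase genes, PRIM1, the catalytic primase subunit, fell with wild-type SPOP and POLA1, POLE2 and PRIM2 rose in the mutants against wild-type SPOP. PRIM1 read 10.34, 10.46 and 10.23 with control vector, 9.85, 9.88 and 9.70 with wild-type SPOP, and 9.98, 10.27, 9.81, 9.79, 9.52 and 9.87 in the mutants. Only SPOP F102C array 2 among the mutant arrays reached the controls. PRIM1 differed from control by -0.53 ± 0.12 with wild-type SPOP (adjusted p = 0.0217, limma) and by -0.47 ± 0.10 in the mutants (adjusted p = 0.0122), the latter call lost without control array 2. A second PRIM1 probe gave -0.43 and -0.47. PRIM2, the other primase subunit, read 5.95, 6.33 and 5.69 with control vector, 5.36, 6.10 and 5.82 with wild-type SPOP and 6.05 to 6.87 in the mutants. Its groups overlapped, and its rise of 0.66 ± 0.18 against wild-type SPOP (adjusted p = 0.0372) was lost in 6 of the 12 fits that left out 1 array. POLA1, which extends the primers, rose by 0.39 (adjusted p = 0.0308), a call lost in 6 of the 12 fits. POLE2, an accessory subunit of polymerase epsilon, rose by 0.30 (adjusted p = 0.0477), was lost in 11 of them and turned to -0.070 under equal medians over all probes. POLA2, POLD1, POLD2, POLD3 and POLE passed in none of the first 3 comparisons, with differences from -0.49 (POLA2) to 0.20 (POLE) for wild-type SPOP against control.

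Of the single-strand binding and lagging strand genes, FEN1, the nuclease that trims lagging strand flaps, rose in the mutants by 0.35 ± 0.09 against wild-type SPOP (adjusted p = 0.0264, limma). It read 11.81 to 12.03 with control vector, 11.63, 11.79 and 11.55 with wild-type SPOP, and 12.03, 12.11, 12.17, 11.97, 11.88 and 11.87 in the mutants. All wild-type SPOP arrays were below all others. A second fully detected FEN1 probe gave 0.40 for the mutants against wild-type SPOP. RPA1, RPA2 and RPA3, which coat single-stranded DNA, and the ligase LIG1 did not pass, at -0.16 to -0.01 for wild-type SPOP against control. Further fully detected RPA1 probes gave 0.05 and 0.13 there.

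Of the 5 chromatin and methylation genes 2 fell with wild-type SPOP, and the same number rose in the mutants against wild-type SPOP. UHRF1, which brings DNMT1 to newly copied DNA, read 9.53, 9.48 and 9.28 with control vector, 9.02, 9.02 and 8.92 with wild-type SPOP, and 9.46, 9.46, 9.58, 9.57, 9.58 and 9.62 in the mutants. The wild-type SPOP arrays were below all others. The difference was -0.45 ± 0.09 for wild-type SPOP against control (adjusted p = 0.0137, limma) and 0.56 ± 0.08 for the mutants against wild-type SPOP (adjusted p = 0.00122). CHAF1A, the large subunit of the factor that places histones behind the fork, read 6.99, 6.74 and 6.91 with control vector, 6.53, 6.32 and 6.22 with wild-type SPOP, and 6.62, 6.88, 7.04, 7.03, 6.82 and 6.69 in the mutants. Again the wild-type SPOP arrays did not meet the other groups, at -0.53 ± 0.11 (adjusted p = 0.0188, limma) and 0.49 ± 0.10 (adjusted p = 0.00951). Its partner CHAF1B, at -0.28 and 0.33, the maintenance methyltransferase DNMT1, at -0.18 and 0.13, and the histone mRNA binding protein SLBP, at -0.20 and 0.21, did not pass in either comparison. A second fully detected SLBP probe gave -0.15 and 0.36 (unadjusted p = 0.152 and 0.00111, limma).

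Among the nucleotide supply genes, thymidylate synthase (TYMS), thymidine kinase (TK1) and the ribonucleotide reductase subunits RRM1 and RRM2 passed in none of the first 3 comparisons. Their differences for wild-type SPOP against control ran from -0.26 (RRM2) to 0.25 (TK1). UNG read 11.15, 10.93 and 11.04 with control vector, 10.59, 10.52 and 10.48 with wild-type SPOP, and 11.02, 11.37, 11.18, 11.12, 11.12 and 11.39 in the mutants. The wild-type SPOP arrays were below all others and the mutant arrays overlapped the controls. The differences were -0.50 ± 0.11 (adjusted p = 0.0237, limma) and 0.67 ± 0.10 (adjusted p = 0.00174), and a second fully detected UNG probe gave -0.25 and 0.35. Another UNG probe, detected on 7 arrays, gave -0.29 and -0.07.

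CDCA7, a target of E2F that was only listed here with the G1/S regulators, read 9.85, 9.65 and 9.54 with control vector, 9.26, 8.98 and 8.92 with wild-type SPOP, and 9.73, 9.74, 9.54, 9.56, 9.53 and 9.70 in the mutants. It was lowest on the wild-type SPOP arrays without overlap, at -0.63 ± 0.11 against control (adjusted p = 0.00783, limma), and rose by 0.58 ± 0.10 in the mutants against wild-type SPOP (adjusted p = 0.00393). E2F1, a transcription factor for this gene class, varied widely within groups, with 6.72, 7.31 and 6.61 on the wild-type SPOP arrays and 7.53 and 6.54 with SPOP F133L, and passed nowhere. CCNE1, a cyclin E gene, was at -0.38 ± 0.11 for wild-type SPOP against control (adjusted p = 0.0677). The probe of CCNE2, the other cyclin E gene, was detected on 2 control arrays and on no other array, so it has no fold.

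**Figure D3:**
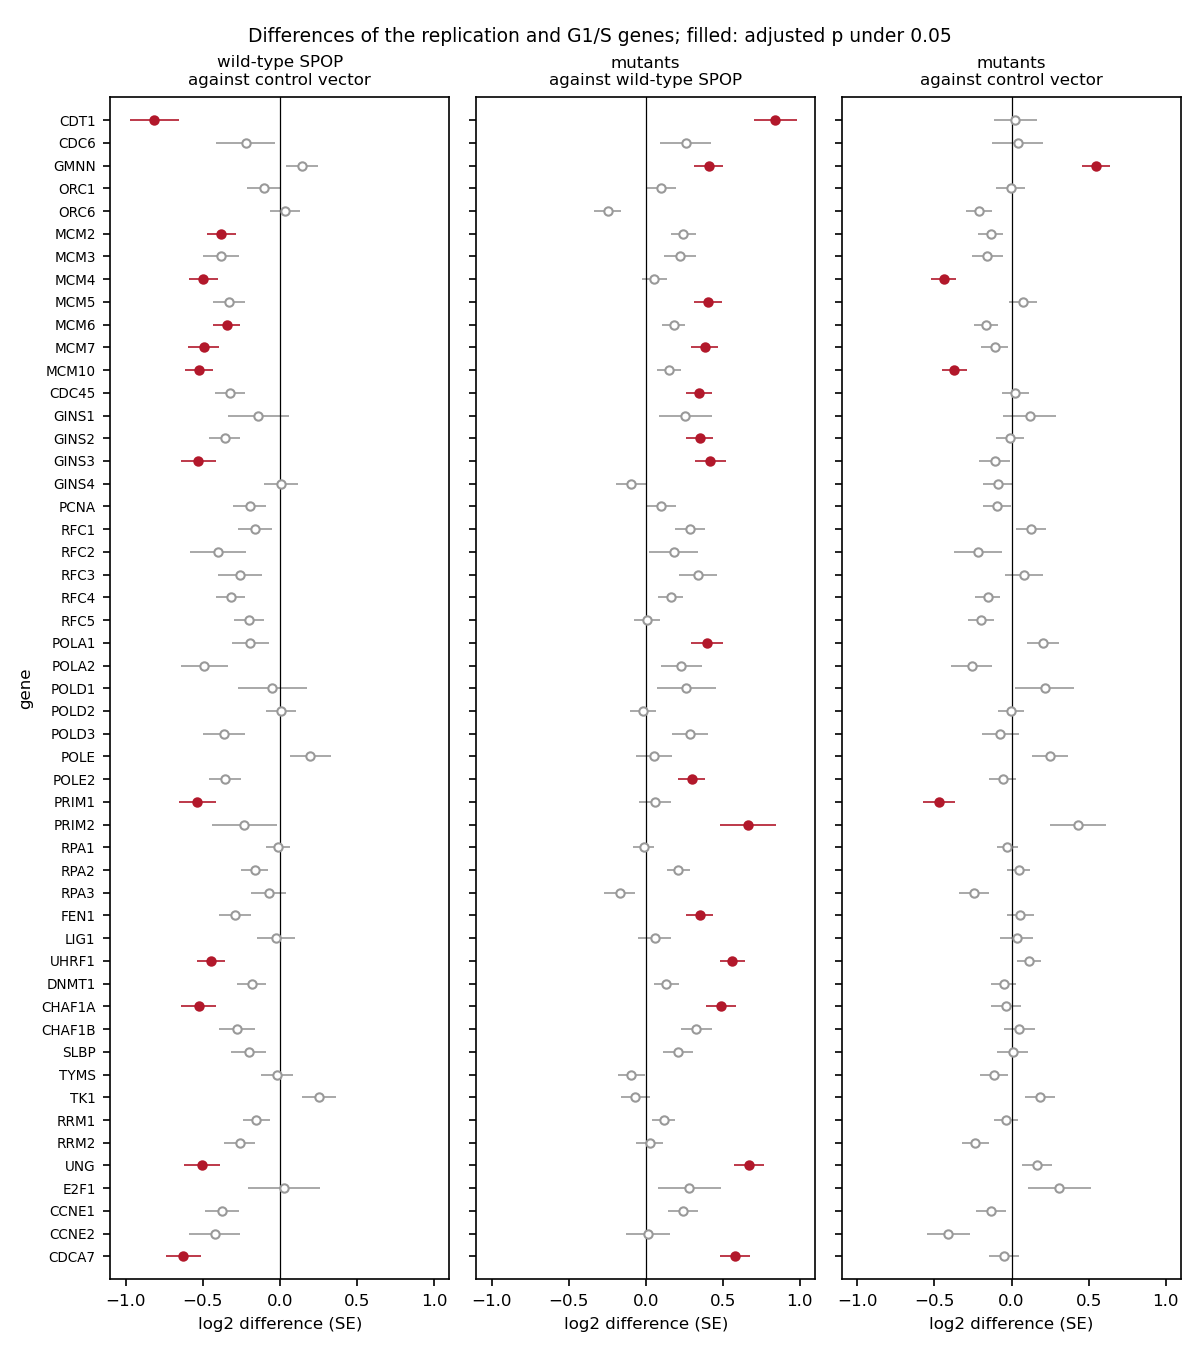
Log2 difference (horizontal axis, bars 1 SE) of each of the 51 genes in 3 panels (wild-type SPOP minus control, mutants minus wild-type SPOP, mutants minus control), filled where the adjusted p is under 0.05. Filled points lie left of 0 in the first panel (12 genes) and right of 0 in the second (15 genes, of which POLE2 turned sign under equal medians over all probes), and the third has 3 lower and 1 higher.

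In the mutants against control vector, 3 of the 51 genes were lower (MCM4, MCM10 and PRIM1) and 1 was higher (GMNN), where 12.2% of all genes passed, 6.62% lower and 5.59% higher. The 6 mutant arrays lay below all 3 control arrays for 4 genes (8.07% of all genes) and above them for 1 (7.39%). The median difference was -0.04 against -0.01 for all genes, and 30 of the 51 differences were below 0 against 52% of all genes. CCNE2, which passed the filter through control arrays alone, is again among those below 0. Under equal medians over all probes the 51 had a median of -0.47 and all genes one of -0.37, and 41 of the 51 were then called lower. That scaling called 6935 of all 12227 genes, of which 156 were higher. Without control array 2 the count of 4 was 2, and with the detected probes as a covariate it was 0. Over all genes the count of 1494 was 886 and 107 in these fits. For genes that had fallen with wild-type SPOP, the interval of the difference between mutants and control shows what these arrays allow. It ran from -0.06 to 0.29 for UHRF1, -0.25 to 0.18 for CHAF1A, -0.26 to 0.17 for CDCA7, -0.05 to 0.38 for UNG, -0.30 to 0.08 for MCM7 and -0.32 to 0.10 for GINS3. For MCM2 it ran from -0.315 to 0.043 and for MCM6 from -0.334 to 0.005, so both lay mostly below 0. These intervals hold 0, and those of MCM4 (-0.62 to -0.26), MCM10 (-0.54 to -0.20) and PRIM1 (-0.70 to -0.25) do not.

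Taken singly, the mutants were each set against wild-type SPOP, in 3 comparisons that share the wild-type SPOP arrays. With SPOP F102C, 4 of the 51 genes rose and 0 fell (3.15% of all genes passed, 1.68% higher and 1.46% lower). They were CDT1 at 0.96 ± 0.18 (adjusted p = 0.0140, limma), CDCA7 at 0.68 ± 0.13, UNG at 0.66 ± 0.13 and UHRF1 at 0.48 ± 0.10. The count of 4 was 0 to 2 without any 1 wild-type SPOP or SPOP F102C array. With SPOP F133V, 10 rose and 0 fell (8.15% of all genes, 3.61% higher and 4.54% lower). They were UHRF1 at 0.59 ± 0.10 (adjusted p = 0.00659), CHAF1A at 0.67 ± 0.13, UNG at 0.62 ± 0.13, GMNN at 0.54 ± 0.12, MCM5 at 0.53 ± 0.12, CDT1 at 0.75 ± 0.18, POLE2 at 0.44 ± 0.11, CDCA7 at 0.50 ± 0.13, PRIM2 at 0.90 ± 0.23 and FEN1 at 0.42 ± 0.11. Without the first SPOP F133V array none passed, and without the second, or any 1 wild-type SPOP array, 4 or 5 did. The median difference of the 51 from wild-type SPOP was 0.23 with both SPOP F133V arrays, and 0.23 without the first or without the second. With SPOP F133L, 5 rose and 0 fell (6.55% of all genes, 3.23% higher and 3.32% lower). They were UHRF1 at 0.62 ± 0.10 (adjusted p = 0.00487), UNG at 0.72 ± 0.13, CDT1 at 0.81 ± 0.18, CDCA7 at 0.56 ± 0.13 and GINS2 at 0.46 ± 0.11, and 1 to 3 passed without any 1 wild-type SPOP or SPOP F133L array. Under equal medians over all probes, with the median of all genes at -0.48 for SPOP F133V, 18 of the 51 were called lower and 0 higher with SPOP F133V. With SPOP F102C 1 was called higher and with SPOP F133L 1 lower. Of all 12227 genes, that scaling called 6796 with SPOP F133V (75 higher), 412 with SPOP F102C (67 higher) and 1422 with SPOP F133L (103 higher).

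The mutants were compared with each other by limma's F test over their group means. None of the 51 genes passed, and 0.0245% of all genes (3) did. At an unadjusted p under 0.05 there were 3 of the 51 and 1443 of all 12227 genes. The gap between the highest and lowest mutant mean had a median of 0.16 over the 51, from 0.02 for POLD3 to 0.56 for RPA3. RPA3 read 12.09 and 12.34 with SPOP F102C, 11.77 and 12.01 with SPOP F133V and 11.62 and 11.70 with SPOP F133L. The F102C arrays were above the others without overlap, with an adjusted p of 0.223 for the F test. MCM2 came next (adjusted p = 0.282), at 9.44 and 9.27 with SPOP F102C, 9.41 and 9.29 with SPOP F133V and 9.10 and 8.90 with SPOP F133L, where both F133L arrays were the lowest. With 2 arrays a mutant the precision is limited, and the test does not show that the mutants act alike.

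Taking each gene's 5 group means, wild-type SPOP was lowest for 37 of the 51 genes, and for 20.2% of all genes tested. The highest mean was that of control vector for 18, SPOP F102C for 15, SPOP F133V for 11, SPOP F133L for 6 and wild-type SPOP for 1 (ORC6). Among all genes tested, the shares with the highest mean were 22.27%, 16.86%, 18.98%, 18.67% and 23.21% in the same order. Taken array by array, the median deviation of the 51 genes from their means over all 12 arrays was 0.12, 0.09 and 0.03 on the control arrays, -0.18, -0.12 and -0.20 with wild-type SPOP, 0.11 and 0.09 with SPOP F102C, 0.04 and 0.07 with SPOP F133V and -0.02 and 0.00 with SPOP F133L. The 3 wild-type SPOP arrays were the lowest and did not overlap any other group. The spread between arrays of a group (SD) had a median of 0.13 over the 51 genes and 0.15 over all genes.

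Genes of the same pathways outside the 51 were described from 5 further lists. Of all genes tested, 3.07% fell and 3.08% rose with wild-type SPOP against control. In the mutants against wild-type SPOP 6.18% fell and 5.57% rose. Of 14 other licensing and origin firing genes, DTL, a subunit of the ligase that destroys CDT1 in S phase, fell with wild-type SPOP. DTL read 9.14, 8.57 and 8.73 with control vector, 7.98, 8.07 and 7.99 with wild-type SPOP, and 8.22, 8.08, 8.32, 8.24, 8.35 and 8.20 in the mutants. All control arrays were above all others, with differences from control of -0.80 ± 0.13 (adjusted p = 0.00439, limma) and, in the mutants, -0.58 ± 0.11 (adjusted p = 0.00747). The list's medians were -0.11 for wild-type SPOP against control and 0.01 for the mutants against wild-type SPOP, and none of its genes passed in the latter.

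Of 22 other fork and replication stress genes, 5 fell and 1 rose with wild-type SPOP (median -0.26), and 1 rose in the mutants against wild-type SPOP (median 0.09). With wild-type SPOP these are 22.7% and 4.55%, against 3.07% and 3.08% of all genes. The rise in the mutants is 4.55%, against 5.57% of all genes. The mismatch repair gene MSH6 differed by -0.60 ± 0.12, the chromatin remodeller HELLS by -0.51 ± 0.10 and the checkpoint kinase CHEK1 by -0.44 ± 0.09, while POLD4, a small subunit of polymerase delta, rose by 0.60 ± 0.11. The histone chaperone ASF1B rose in the mutants by 0.53 ± 0.11 (adjusted p = 0.0121, limma). Of 19 other nucleotide supply genes none passed for wild-type SPOP against control (median -0.19). At an unadjusted p under 0.05 there were 7 of the 19, and 2578 of all 12227 genes. In the mutants against wild-type SPOP, IMPDH1, of guanine nucleotide synthesis, and DCTD, of thymidylate supply, rose by 0.59 and 0.27. RRM2B, a p53-induced reductase subunit, fell by 0.46. These are 10.5% higher and 5.26% lower, against 5.57% and 6.18% of all genes.

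Among 31 other G1/S control genes the largest difference was that of CDKN1A, which encodes the cyclin-dependent kinase inhibitor p21. CDKN1A read 10.36, 10.29 and 10.19 with control vector, 11.36, 11.63 and 11.61 with wild-type SPOP, and 10.46, 10.33, 10.85, 10.41, 10.44 and 10.64 in the mutants. All wild-type SPOP arrays were above all others, at 1.26 ± 0.13 against control (adjusted p = 0.000115, limma) and -1.02 ± 0.11 for the mutants against wild-type SPOP (adjusted p = 0.000256). E2F2, an activating E2F, read 8.35, 8.25 and 8.24 with control vector, 7.67, 7.83 and 7.78 with wild-type SPOP and 8.17 to 8.54 in the mutants. It differed by -0.52 ± 0.10 and 0.56 ± 0.08 in the same comparisons. In that list 3 genes fell and 1 rose with wild-type SPOP, the other falls being E2F7 at -0.50 and MYC at -0.43. In the mutants against wild-type SPOP, 4 rose, among them E2F2 and the S phase kinase CDK2, and 2 fell, CDKN1A and RBL2, an RB family member. With wild-type SPOP the shares were 9.68% lower and 3.23% higher, against 3.07% and 3.08% of all genes. In the mutants they were 12.9% higher and 6.45% lower, against 5.57% and 6.18% of all genes.

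The 24 G2/M and mitosis genes served as a contrast within the cell cycle. None passed for wild-type SPOP against control, with a median of -0.01 and a range from -0.30 to 0.24. At an unadjusted p under 0.05 there was 1 of the 24, and 2578 of all 12227 genes. In the mutants against wild-type SPOP the median was -0.01, 0 rose and 1 fell, the spindle checkpoint kinase BUB1, at -0.29 ± 0.08 (adjusted p = 0.0429, limma). Of all genes, 5.57% rose and 6.18% fell. For the 51 replication and G1/S genes the medians were -0.26 and 0.23. No test of the difference between lists was made.

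**Figure D4:**
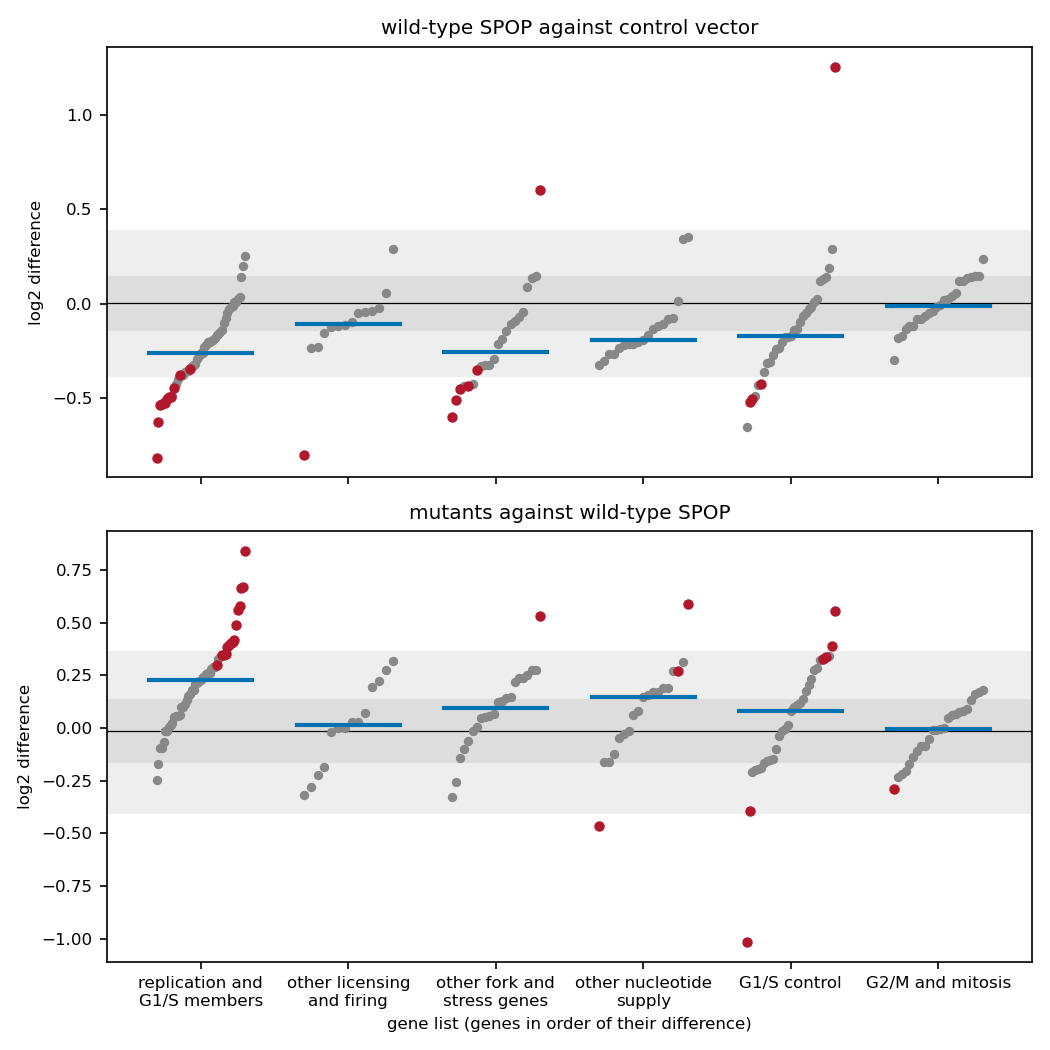
Log2 differences (vertical axis) of the genes of 6 lists, in order within each list, for wild-type SPOP minus control (top) and mutants minus wild-type SPOP (bottom), with a blue bar at each list's median and red points where the adjusted p is under 0.05. Dark and light grey bands hold the middle of all genes tested (quartiles, and the 5th to 95th percentiles), and the list medians run from -0.26 to -0.01 in the top panel.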

How the data were processed

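Per the file headers and labels, the authors deposited for each of 12 Illumina arrays a non-normalized bead intensity (linear) and a detection p-value per probe. A second deposited table holds processed values whose size and spread are those of log2 values, with a median of 7.53 on each array. The submitters' processing notes name lumi, without a version or settings. The processed log2 values served only as an alternative.

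Background correction and quantile normalization were done with neqc (limma 3.58.1, R 4.3.3, offset 16), and 23133 of 47323 probes detected at p under 0.05 on at least 2 arrays were kept. Symbols came from the platform annotation, with 0 updated. All 12 arrays and all 12227 genes entered 1 limma fit of 5 group means (lmFit and eBayes, 7 residual and 4.67 prior degrees of freedom), with Benjamini-Hochberg adjustment and a threshold of 0.05. The fit was also run on simulated data. Levels and differences are log2, and errors of differences are standard errors.

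The 51 genes, the lists and the rules were chosen with earlier results of these data known. Members past the threshold in the first 3 comparisons or the F test are named, the 8 of lowest p in each of the first 2 array by array, the rest by ranges, and up to 4 genes per other list and comparison, with SPOP and CDKN1A always. The array values of PCNA, E2F1 and other members beyond these were chosen after they were seen. All per-sample columns were mapped to samples (0 left over). Replicate numbers of the titles did not pair the samples, so no block was used in the main fit. The alternatives were other background corrections, scalings, filters, probe rules, variance models, array weights, a detection covariate, fewer groups, a replicate block and leaving out each array.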

Additional observations from a re-analysis of the deposited data

How the results depend on the processing

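Counts of the 51 genes past the threshold depended on the processing in every comparison, and the cause was not tested. For wild-type SPOP against control vector (12) they were 20 with an offset of 50, 22 without background correction, 22 with the deposited processed values, 21 with an intensity trend and 4 with the number of detected probes as a covariate. All were lower, and leaving out 1 array gave 5 to 12. For the mutants against wild-type SPOP (15) they were 23 without background correction, 8 with equal medians over all probes (5 lower and 3 higher), 3 with the covariate and 6 to 15 without 1 array. For the mutants against control vector (4) they were 8 without background correction, 41 with equal medians over all probes, 9 with the processed values, 7 with the trend, 0 with the covariate (10 at an unadjusted p under 0.05 without the covariate) and 2 to 5 without 1 array, with 2 when control array 2 was left out. For SPOP F102C (4) they were 11 with the offset of 50, 17 without background correction, 1 with equal medians over all probes, 15 with the processed values, 8 with detection at p under 0.01 on at least 3 arrays, 14 with the trend, 7 with array weights and 0 to 5 without 1 array. For SPOP F133V (10) they were 18 with equal medians over all probes (all lower), 0 with the covariate, 4 with the groups compared alone and 0 to 12 without 1 array. For SPOP F133L (5) they were 11, 13, 1, 13 and 13 with the offset of 50, no background correction, equal medians over all probes, the processed values and the trend. They were 3 with the mean over probes, 2 with the covariate, 3 with the groups compared alone and 1 to 5 without 1 array. The F test among the mutants (0) called 1 without background correction and 1 with the trend, and 0 in each fit without 1 array.

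Directions reversed under equal medians over all probes alone. POLE2 in the mutants was at -0.070, and against wild-type SPOP the SPOP F133V differences were -0.042 for GMNN, -0.10 for MCM5, -0.19 for POLE2, -0.078 for FEN1, -0.053 for UHRF1 and -0.15 for CDCA7. That scaling moved the median of all genes to -0.10, -0.26, -0.37 and -0.48 for wild-type SPOP against control, mutants against wild-type SPOP, mutants against control and SPOP F133V against wild-type SPOP. Of all genes called, 28.5%, 3.05% and 2.25% were then higher in the first 3, against 50.1%, 47.4% and 45.8% in the main fit, and 51.6%, 74.6% and 75.8% with medians equalized over probes detected everywhere. Over all genes, the main fit called 752, 1437 and 1494 in the first 3 comparisons. Equal medians over all probes called 593, 4617 and 6935, and the covariate 343, 308 and 107. For SPOP F133V against wild-type SPOP these counts were 997, 6796 and 5. For mutants against control, 10 of the 51 and 3274 of all genes had an unadjusted p under 0.05 in the main fit. The members' median minus that of all genes stayed between -0.33 and -0.18, between 0.13 and 0.26 and between -0.10 and 0.00 over 25 settings. Over the named genes and all settings, 968 values kept their direction and side of the threshold, 275 kept only their direction and 7 reversed. This tally covers only genes past the threshold in the main fit. Some settings leave a difference unchanged by design, so its direction could not reverse there. They include the trend, the groups compared alone and leaving out an array of a group not compared. The tally is therefore no measure of robustness.

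The replicate numbers do not pair the samples: deviations of the 21 same-numbered pairs correlated at -0.06 to 0.04, 0 were over 0.1, and 5 of 12 arrays were closest to a same-numbered array of another group. With a replicate block the counts were 9, 7, 4, 0, 5 and 2 in the order above and 0 in the F test. A slide block was not run, since the headers used here give no slide. Arrays of 2 or 3 per group and the dim first SPOP F133V array limit the precision.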
